A study of Mus musculus with 14 samples.

Results

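DNA replication and G1/S genes are the 33 genes followed here, a list of helicase subunits, origin loading factors, DNA synthesis enzymes, G1/S regulators, nucleotide synthesis enzymes and chromatin assembly factors. Each was measured in germinal centre B cells on 14 arrays, through its brightest probe set among those that name a single gene. A probe set was found for 32 of the 33 genes, and the level of Chaf1a was not analysed here. All 32 passed the filter on dim genes, a mean log2 intensity above 6.43 over the 14 arrays, among 10225 genes that passed.

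The cells were splenic B220+CD95+PNA+ B cells, sorted from single mice, 1 array per mouse. KO mice had 2 floxed alleles of Crebbp, which encodes a lysine acetyltransferase and transcriptional coactivator (genotype Crebbpfl/fl Cg1-Cre, n = 5, 3 males). HET mice had 1 floxed allele (Crebbpfl/+ Cg1-Cre, n = 5, 2 males) and WT mice had none (Crebbp+/+ Cg1-Cre, n = 4, 1 male). All 3 groups carried Cg1-Cre, a recombinase that acts in activated B cells, and all mice were of C57BL/6x129Sv background and 8 to 12 weeks old. Sheep erythrocytes were given on day 0 and again on day 5, and spleens were taken on day 12. The share of sorted cells that had recombined the floxed alleles was not measured here.

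A cell that enters S phase first loads the MCM2 to MCM7 helicase onto origins with CDC6 and CDT1. Cyclin E with CDK2 and the factors CDC45, GINS and MCM10 then activate it, and polymerase alpha with primase, the clamp PCNA, its loader RFC, FEN1 and DNA ligase 1 carry out synthesis. Transcription factors of the E2F family, which bind DNA as dimers with a DP partner, drive many of these genes at the end of G1. Germinal centre B cells are among the fastest dividing mammalian cells, and the cells of the dark zone are rich in replication transcripts.

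Crebbp itself followed the labels. On its brightest probe set the KO change was -0.41. In the main fit over tested genes this change was called (SE 0.09, limma adjusted p = 0.0372), with every KO array below every WT array. In the fit over 22518 probe sets the same change did not pass (SE 0.10, limma adjusted p = 0.0719). The other 3 probe sets had KO changes of -0.47, -0.86 and -0.30. Where the change was -0.86, the log2 intensity was 9.42 ± 0.10 in KO cells (SD, n = 5), 9.95 ± 0.17 in HET cells (SD, n = 5) and 10.29 ± 0.08 in WT cells (SD, n = 4), with a limma adjusted p = 0.000822 for KO against WT. The position of these probes with respect to the deleted exons was not analysed here. The array of KO 3 stood apart, with a median correlation of 0.979 with the other arrays over tested genes, against 0.984 to 0.990 for the other 13, so results that turn on it are given without it too. Germinal centre B cell markers (7 of 9 listed genes measured) averaged 12.05 to 12.16 on KO arrays, 12.21 to 12.27 on HET arrays and 12.24 to 12.30 on WT arrays. Every KO mean lay below every HET and WT mean. Rgs13, the called gene, was lower, at 10.75 to 11.48 on KO and 11.77 to 11.88 on WT arrays. Cd79a, not called, was also lower on every KO array (12.80 to 12.87, against 12.98 to 13.05 in WT). Bcl6, Fas, Mef2b, S1pr2 and Gcsam overlapped between KO and WT. Plasma cell markers (5 of 5 above the level for testing) averaged 10.12 to 10.40 in KO, 10.16 to 10.47 in HET and 10.24 to 10.37 in WT cells, and 1 of them, Sdc1, rose in KO by 0.81 (limma adjusted p = 0.0404). Over all tested genes 2.44% were called in KO against WT. Irf4, not called, was lower, at 11.35 to 11.57 on KO and 11.62 to 11.91 on WT arrays. Every KO array was lower for 3.65% of all tested genes. Prdm1 (6.87 to 7.65 in KO, 7.46 to 7.83 in WT), Xbp1 (10.28 to 11.05, 10.79 to 11.21) and Jchain (13.02 to 13.29, 13.15 to 13.26) overlapped and were not called. Genes listed for follicular or naive B cells (4 measured, Fcer2a, Ccr6, Klf2 and Cd44, 0 called) averaged 9.29 to 10.04 in KO, 9.27 to 10.05 in HET and 9.74 to 9.94 in WT cells. Cd44 was the brightest of them (11.37 to 11.99 over all arrays) and raised these means. Ccr6 ran from 7.34 on KO 4 to 9.54 on KO 3. Of the myeloid markers 3 of 6 exceeded the level for testing, with list means of 6.45 to 7.16 in KO, 6.22 to 7.10 in HET and 6.47 to 7.39 in WT cells. Single myeloid genes varied far more between arrays of a group. Lyz2 read 6.41 to 9.91 in KO, 6.48 to 10.32 in HET and 6.52 to 9.71 in WT cells. S100a8 read 5.62 to 8.53, 5.56 to 8.31 and 5.52 to 8.88. Of the erythroid markers 0 of 5 exceeded the level for testing, and of the T cell markers 2 of 6 did, with list means of 5.64 to 6.63 in KO, 5.60 to 6.29 in HET and 5.72 to 6.09 in WT cells. The mean of 6.63 belonged to KO 1. This array had the highest Cd3e, Cd3d, Cd3g and Cd8a of all arrays, but not the highest Cd4 or Thy1. Its Cd3g read 6.38, against 4.16 to 5.46 on the other arrays. The part of these markers in the results below was not tested.

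The E2F motif was not itself a criterion for the list. E2F factors drive many genes of this kind, so the list is not independent of the motif. RefSeq promoter windows (GRCm38.p6, 250 bases before to 50 after an annotated start) were matched for 29 of the 33 genes, and Mcm4, Gins1, Gins2 and Ccne2 were not matched. The 29 genes had 35 windows, and a gene was counted if any of its windows held the motif. Some windows lie inside the annotated span of the gene, as for Cdc6, Lig1 and the Uhrf1 window with the E2F match. The motif was searched on both strands as TTTCCCGC, TTTCGCGC, TTTGGCGC and TTTGCCGC, whose matches can overlap. It was found in 12 of the 29 genes (41.4%), against 429 of 8358 tested genes with a window (5.13%) and 2.60% of all 27025 genes in the table. The 12 are Mcm3, Mcm5, Mcm6, Mcm7, Cdc6, Cdt1, Pola1, Lig1, E2f2, Cdk2, Dtl and Uhrf1. The motif CCAAT on either strand, the core of the box bound by NF-Y, was in 19 of the 29 genes (65.5%), against 43.4% of tested genes. The full cAMP response element TGACGTCA, the site of CREB, the factor after which CREBBP is named, was in Mcm5 and Dtl, 2 of the 29 (6.90%, against 3.85% of tested genes). A match is a description of these letters and not a measured binding site.

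The promoters of Mcm5 and Dtl are shown because they hold both the E2F motif and the cAMP response element, that of Mcm6 because it holds 3 E2F matches, and that of Cdc6 as a loading factor with a single match. Each line gives the 250 bases before the start used for its window, 5′ to 3′ on the gene's strand, with E2F matches and TGACGTCA in capitals. The Cdc6 line lies inside the annotated gene, which begins at 98907709, and the Mcm5 line runs past its gene's first base, 75109468. The windows are chr8:75109259-75109508 (Mcm5, plus strand), chr1:191575545-191575794 (Dtl, minus strand), chr1:128359706-128359955 (Mcm6, minus strand) and chr11:98907901-98908150 (Cdc6, plus strand).
Mcm5 promoter: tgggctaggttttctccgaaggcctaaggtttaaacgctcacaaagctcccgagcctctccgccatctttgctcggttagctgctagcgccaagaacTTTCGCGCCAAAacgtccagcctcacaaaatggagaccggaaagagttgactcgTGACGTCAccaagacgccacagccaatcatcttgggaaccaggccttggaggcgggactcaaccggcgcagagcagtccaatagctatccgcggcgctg
Dtl promoter: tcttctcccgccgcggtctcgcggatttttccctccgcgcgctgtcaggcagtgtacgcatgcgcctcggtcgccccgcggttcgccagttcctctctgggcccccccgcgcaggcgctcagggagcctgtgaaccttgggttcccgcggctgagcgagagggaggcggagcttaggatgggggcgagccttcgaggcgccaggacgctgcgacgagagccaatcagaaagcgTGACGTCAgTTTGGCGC
Mcm6 promoter: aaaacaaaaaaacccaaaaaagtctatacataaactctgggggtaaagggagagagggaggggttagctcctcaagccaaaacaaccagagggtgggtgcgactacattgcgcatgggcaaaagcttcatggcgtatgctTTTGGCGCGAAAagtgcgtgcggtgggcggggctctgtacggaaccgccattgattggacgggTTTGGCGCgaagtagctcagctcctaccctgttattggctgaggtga
Cdc6 promoter: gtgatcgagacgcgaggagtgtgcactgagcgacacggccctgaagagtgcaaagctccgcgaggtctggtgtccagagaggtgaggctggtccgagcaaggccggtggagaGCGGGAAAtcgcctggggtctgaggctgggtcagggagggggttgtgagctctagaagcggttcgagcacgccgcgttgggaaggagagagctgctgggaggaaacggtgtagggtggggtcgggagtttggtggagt

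In Mcm5 the first E2F match begins 153 bases before the start and overlaps the second, and the cAMP response element begins 99 bases before it. In Dtl the cAMP response element begins 17 and the E2F motif 8 bases before the start. Mcm6 has an overlapping pair at 110 and 106 bases and a further match at 47 bases before the start.

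The first comparison asks whether loss of both Crebbp alleles changes the replication transcripts of these cells. KO cells, set against WT cells, had 0 of the 32 replication and G1/S genes past an adjusted p of 0.05 in either direction. Over all genes 2.44% were called in this comparison (limma, 249 of 10225, 1.17% higher and 1.26% lower). At an unadjusted p under 0.05 there were 2 of the 32, Gins1 lower and Gins2 higher, against 13.1% of all tested genes. The fitted log2 changes were positive for 13 and negative for 19 genes. They ran from -0.22 for Cdk2 to 0.24 for Ccne2, with a median of -0.011, beside a median of -0.0027 over all tested genes. The median size of a change was 0.033, against 0.084 over all tested genes. The arrays were normalised to a common distribution, so these changes are relative to the other genes on the array, and in a sorted population a change in the share of cycling cells and in RNA per cell cannot be told apart.

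The 95% confidence intervals show what change could have been missed on the brightest probe set of each gene. In KO against WT the intervals lay within 1.25-fold of no change in either direction for 26 of the 32 genes and within 1.5-fold for 30, against 51.7% and 87.7% of all tested genes. The exceptions at 1.5-fold were Ccne2, with an interval from -0.17 to 0.66, and Cdk2, from -0.83 to 0.39. No interval reached 2-fold. These limits hold for the probe sets used, and probe sets of a gene can differ in the size of a change. For Crebbp the KO change was -0.41 on its brightest probe set and between -0.86 and -0.30 on its others. The limits also hold for the sorted population, in which the share of recombined cells was not measured here. The genes varied little between mice: the residual SD was below the median of all tested genes (0.149) for 28 of the 32, with a median of 0.084, from 0.043 for Fen1 to 0.458 for Cdk2. Between the lowest and the highest of the 14 arrays, 27 genes differed by at most 0.50 log2 units. The genes were also bright. A mean of 10 or more was found for 30 of the 32, and the 75th percentile of all probe sets other than controls was 9.09. The part of brightness in the spreads, interval shares and sizes of change set against all tested genes was not tested.

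**Figure D1:**
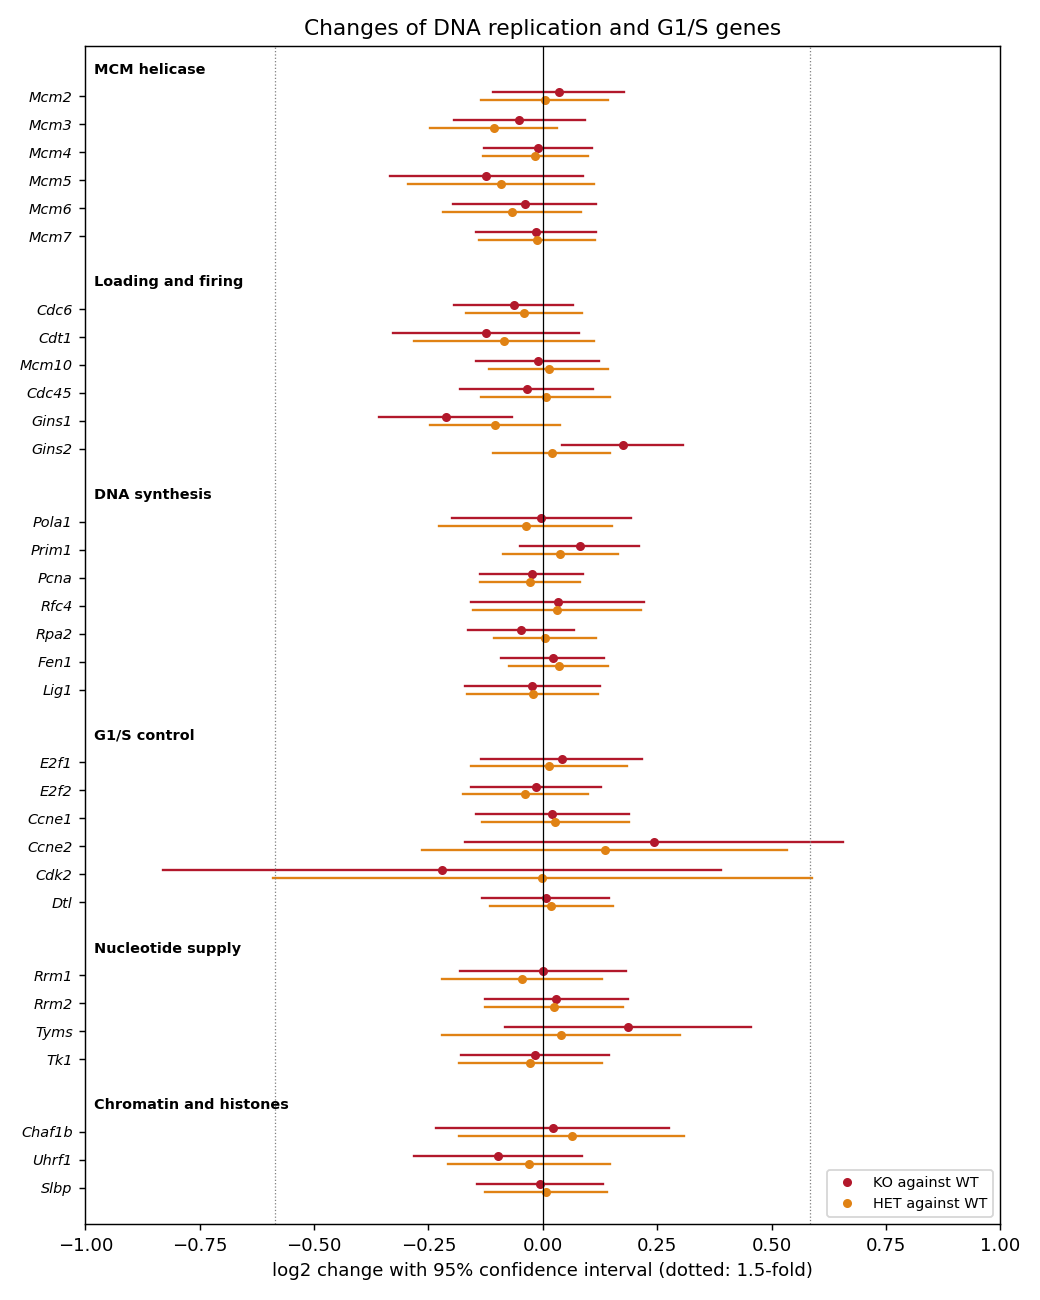
Fitted log2 changes (points) and 95% confidence intervals (lines) of 32 DNA replication and G1/S genes, grouped by role, for KO against WT (red) and HET against WT (orange). Intervals of 30 genes in KO against WT lie inside the dotted 1.5-fold limits, and those of Ccne2 and Cdk2 are the widest.

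Among the subunits of the MCM helicase, which unwinds DNA at the fork, KO cells had 0 of 6 genes called, with 5 negative changes and a median of -0.028. Mcm5 had the largest change of the 6. Its log2 intensities were 12.07, 12.40, 12.39, 12.42 and 12.29 in KO cells, 12.45, 12.30, 12.25, 12.49 and 12.19 in HET cells, and 12.25, 12.34, 12.57 and 12.50 in WT cells. The lowest value belonged to KO 1, and the 3 groups overlapped. The KO change was -0.12 (SE 0.10, limma adjusted p = 0.697), and -0.07 without KO 1. Mcm7, the brightest probe set of the 6, read 13.03, 12.99, 13.12, 12.99 and 12.98 in KO cells, 13.07, 13.13, 13.05, 12.88 and 13.04 in HET cells, and 12.99, 13.07, 13.11 and 13.06 in WT cells. All 14 of its values lay within 0.25 log2 units, with a KO change of -0.015 (interval -0.15 to 0.12). For Mcm2, Mcm3, Mcm4 and Mcm6 the KO changes were 0.034, -0.05, -0.011 and -0.04.

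Factors that load and fire the helicase held both genes with an unadjusted p under 0.05. Gins1 and Gins2 encode subunits of GINS, the complex that joins CDC45 and MCM2 to MCM7 in the active helicase. Gins1 read 11.45, 11.61, 11.48, 11.57 and 11.57 in KO cells, 11.72, 11.65, 11.54, 11.54 and 11.79 in HET cells, and 11.79, 11.73, 11.76 and 11.74 in WT cells. The highest KO value was under the lowest WT value, as for 3.65% of all tested genes (and 2.87% the other way round), and HET arrays spanned the gap. The KO change was -0.21 (SE 0.07, interval -0.36 to -0.07, limma adjusted p = 0.144), and a dimmer second probe set had a fitted change of -0.15 (SE 0.09, unadjusted p = 0.137).

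Gins2 had values on the other side. It read 10.36, 10.28, 10.57, 10.46 and 10.40 in KO cells, 10.21, 10.36, 10.36, 10.12 and 10.39 in HET cells, and 10.22, 10.34, 10.32 and 10.28 in WT cells. KO 3 was highest and the KO and WT ranges overlapped. The KO change was 0.17 (SE 0.06, interval 0.04 to 0.31, limma adjusted p = 0.196), and a second probe set had a fitted change of 0.20 (SE 0.06, adjusted p = 0.235 over 22518 probe sets). Without the sex term in limma the KO change of Gins2 was 0.12 (SE 0.07, unadjusted p = 0.115). The unadjusted limma p was 0.0546 with only KO and WT arrays fitted, and 0.0543 with the replicate number as a block. Each gene's second probe set had the sign of its first, and neither gene passed. Gins3 and Gins4, the genes of the other GINS subunits, had KO changes of 0.13 (SE 0.08, limma adjusted p = 0.567) and 0.10 (SE 0.08, adjusted p = 0.696), so of the 4 genes Gins1 alone had a negative value.

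The other loading and firing genes also had 0 calls. Cdt1, the licensing factor that is degraded in S phase, read 11.76, 12.04, 12.14, 11.98 and 11.93 in KO cells, 12.11, 12.17, 11.96, 11.97 and 11.85 in HET cells, and 11.95, 12.07, 12.22 and 12.16 in WT cells. KO 1 was its lowest array, as it was for Mcm5, and the groups overlapped. Its KO change was -0.12 (SE 0.09, limma adjusted p = 0.678). Cdc6, the ATPase that recruits the helicase, had a fitted change of -0.06, the helicase activator Cdc45 of -0.035 and Mcm10 of -0.011.

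Enzymes of DNA synthesis had 0 of 7 genes called. The median KO change of the 7 genes was -0.0031, from -0.05 for Rpa2, a subunit of the single-strand binding protein, to 0.08 for Prim1, the catalytic subunit of primase. Prim1 read 13.07, 13.01, 13.22, 13.01 and 13.03 in KO cells, 13.04, 13.06, 13.03, 13.00 and 13.02 in HET cells, and 12.93, 12.97, 13.06 and 13.03 in WT cells. KO 3 was its highest array, and without KO 3 the KO change was 0.03. Rpa2 read 11.31, 11.40, 11.45, 11.32 and 11.37 in KO cells, 11.41, 11.46, 11.47, 11.43 and 11.38 in HET cells, and 11.39, 11.45, 11.49 and 11.38 in WT cells, with overlap between all groups (KO change interval -0.16 to 0.07). Fen1, the flap nuclease that trims Okazaki fragments, had the narrowest spread of all 32 genes. It read 13.51, 13.50, 13.59, 13.47 and 13.47 in KO cells, 13.52, 13.53, 13.58, 13.52 and 13.47 in HET cells, and 13.46, 13.53, 13.47 and 13.50 in WT cells. Its KO change was 0.02 (interval -0.09 to 0.13). Pcna, the sliding clamp, had a fitted change of -0.02 (interval -0.14 to 0.09), Lig1 of -0.02, Rfc4 of 0.03 and Pola1 of -0.0031.

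G1/S regulators included the 2 genes with the widest spread. Ccne2, a cyclin E gene, read 9.81, 10.03, 9.59, 10.43 and 10.43 in KO cells, 9.71, 9.79, 9.67, 10.23 and 10.14 in HET cells, and 9.49, 9.63, 9.72 and 10.13 in WT cells. In each group the arrays numbered 4 and 5 were the high ones, and the groups overlapped. The KO change was 0.24 (SE 0.19, limma adjusted p = 0.695), 0.38 without KO 3, 0.39 without WT 4 and 0.053 without KO 4. Cdk2, the kinase partner of cyclin E, is named here after its values were seen. It read 10.35, 10.46, 9.15, 10.98 and 10.80 in KO cells, 10.46, 10.50, 10.17, 10.63 and 10.77 in HET cells, and 10.40, 10.33, 10.31 and 10.80 in WT cells. KO 3 was far below the other KO arrays, and the KO change of -0.22 (SE 0.28, limma adjusted p = 0.860) was 0.17 without KO 3 and -0.54 without KO 4 (adjusted p = 0.310).

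Dtl, which targets CDT1 for degradation in S phase, read 12.36, 12.43, 12.21, 12.36 and 12.46 in KO cells, 12.33, 12.39, 12.31, 12.45 and 12.36 in HET cells, and 12.37, 12.32, 12.40 and 12.27 in WT cells. These ranges overlapped nearly in full, with a KO change of 0.0063 (interval -0.13 to 0.14). Changes of the activator E2F genes were 0.04 for E2f1 and -0.015 for E2f2, and that of Ccne1, the other cyclin E gene, was 0.02. A dimmer probe set of E2f1 had a KO mean of 7.80 ± 0.042 (SD, n = 5) and a WT mean of 8.07 ± 0.13 (SD, n = 4). Its unadjusted limma p was 0.00674 and its adjusted p was 0.200 over 22518 probe sets, so the probe sets of E2f1 disagreed. E2f1 was not alone in this. Of 24 listed genes with several probe sets above the level for testing, 10 had KO changes of both signs. Mcm2, Rfc4, Rrm2, Dtl and Tyms were among them, so the sign of such a change depended on the probe set. Of all 70 probe sets of the listed genes above this level, 0 were called in KO against WT.

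**Figure D2:**
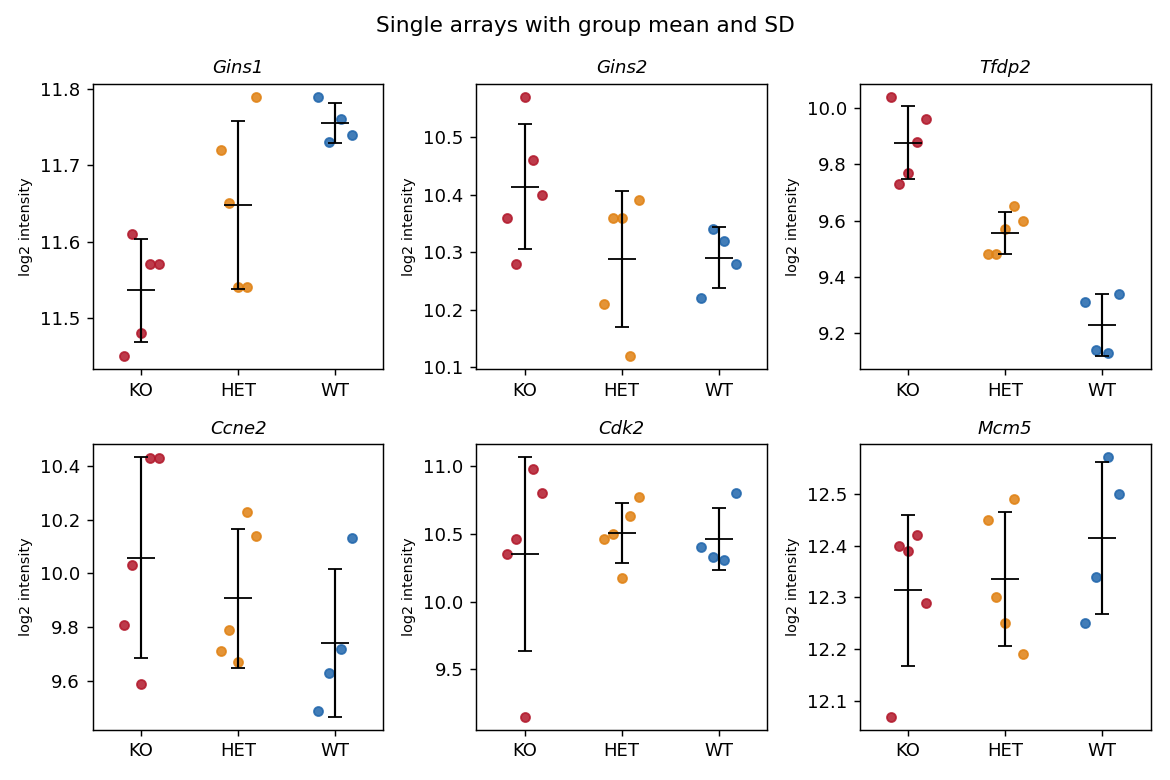
Log2 intensity on each array (points) with the group mean and SD (bars) for Gins1, Gins2, Tfdp2, Ccne2, Cdk2 and Mcm5 in KO, HET and WT cells, each panel with its own axis that does not start at 0. All 5 KO arrays of Gins1 lie below the 4 WT arrays, the 3 groups of Tfdp2 do not overlap, and KO 3 lies at 9.15 for Cdk2.

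Genes of deoxynucleotide supply had 0 of 4 called, with a median KO change of 0.015. Tyms, thymidylate synthase, was the dimmest of the 32 probe sets, with a mean of 7.72. It read 7.61, 7.63, 7.73, 7.94 and 8.22 in KO cells, 7.58, 7.77, 7.58, 7.71 and 7.75 in HET cells, and 7.43, 7.61, 7.78 and 7.73 in WT cells. KO 5 was its highest array, and the KO change of 0.19 (SE 0.12, limma adjusted p = 0.614) was 0.10 without KO 5. Rrm2, the ribonucleotide reductase subunit made in S phase, read 13.06, 13.18, 12.98, 13.15 and 13.03 in KO cells, 13.05, 12.94, 13.11, 13.20 and 13.06 in HET cells, and 13.11, 13.07, 13.08 and 12.93 in WT cells. Its ranges overlapped, with a KO change of 0.03 (interval -0.13 to 0.19). Rrm1, its partner subunit, had a fitted change of 0.00095, and Tk1, thymidine kinase, of -0.02.

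Chromatin and histone genes had 0 of 3 called. Uhrf1, which guides maintenance DNA methylation behind the fork, read 12.80, 13.00, 12.58, 12.96 and 13.00 in KO cells, 12.85, 12.90, 12.92, 13.02 and 12.94 in HET cells, and 12.93, 12.99, 12.96 and 12.91 in WT cells. KO 3 was lowest, and the KO change of -0.10 (SE 0.09, limma adjusted p = 0.736) was -0.00027 without KO 3. Slbp, the histone mRNA binding protein, had a fitted change of -0.0063, and Chaf1b, a subunit of chromatin assembly factor CAF-1, of 0.02.

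Without KO 3 the number of called genes among the 32 was again 0 in KO against WT. The sign of the change was different for 10 of the 32 genes, the largest of them Cdk2. For Pola1 the KO change was 0.12 without KO 3 (SE 0.06, limma adjusted p = 0.426), and for Rfc4 it was -0.07.

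**Figure D3:**
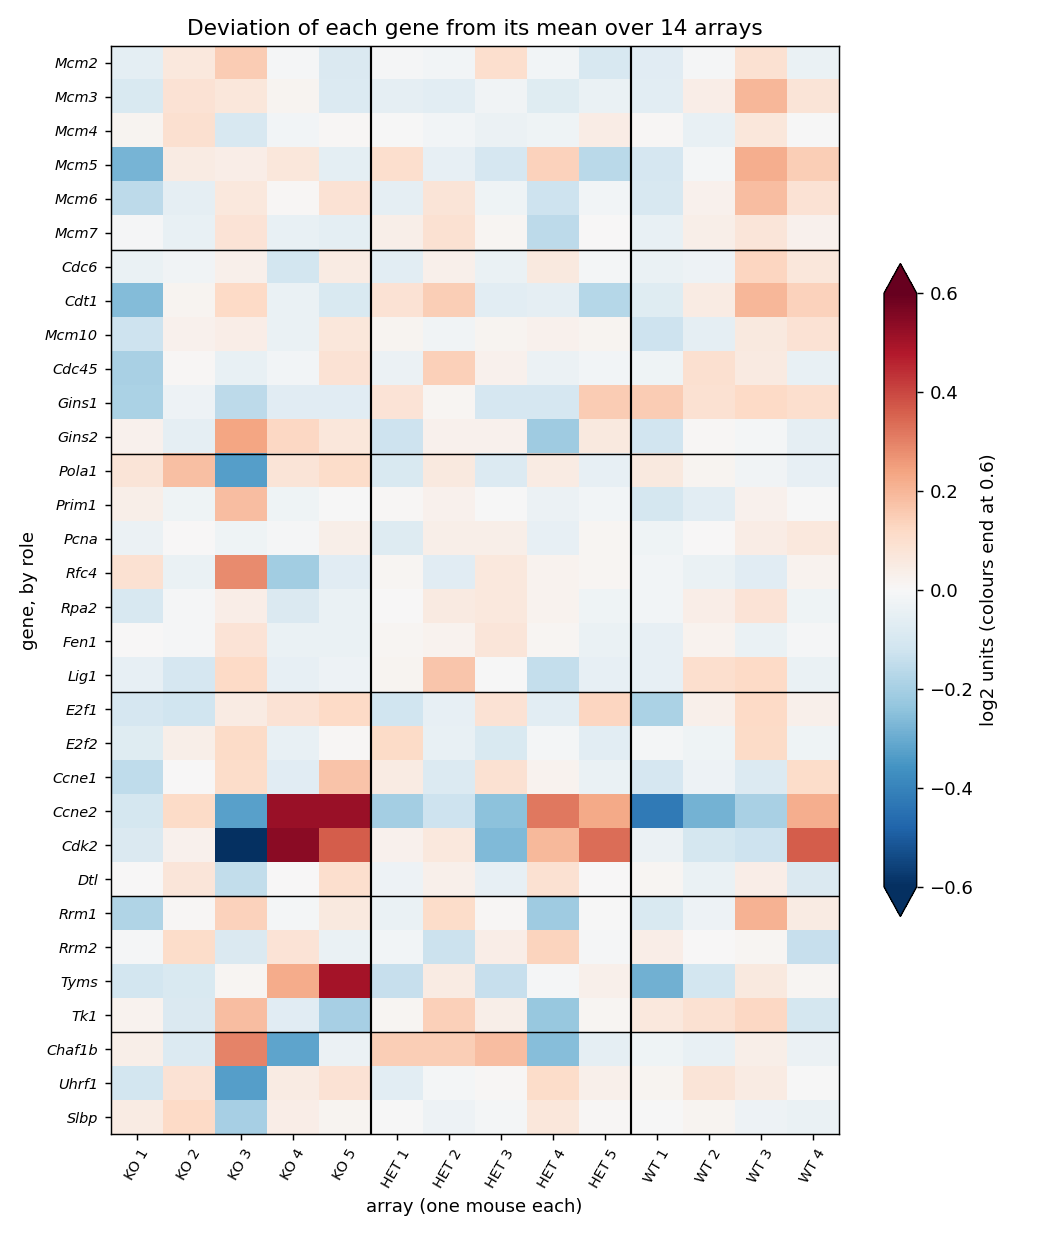
Deviation of each of 32 genes from its own mean over the 14 arrays, in log2 units, with KO, HET and WT arrays in columns and genes in rows by role (helicase, loading and firing, synthesis, G1/S control, nucleotides, chromatin). Most cells are pale, Ccne2 and Cdk2 vary most, and the column of KO 3 has low Cdk2, Pola1 and Uhrf1 beside high Rfc4 and Chaf1b.

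With 1 floxed allele, HET cells likewise had 0 of 32 genes called against WT cells (limma, 0% of all tested genes). At an unadjusted p under 0.05 there were also 0 of the 32, against 2.74% of all tested genes. The changes were positive for 16 and negative for 16 genes, with a median of 0.0016, beside 0.0013 over all genes, and ran from -0.11 for Mcm3 to 0.14 for Ccne2. Mcm3 read 12.38, 12.56, 12.54, 12.49 and 12.39 in KO cells, 12.42, 12.41, 12.45, 12.40 and 12.43 in HET cells, and 12.41, 12.51, 12.67 and 12.55 in WT cells. HET arrays sat at the low end of the WT range, with WT 3 the highest array (HET change -0.11, SE 0.06, unadjusted p = 0.116, and -0.07 without WT 3). Gins1 had a fitted change of -0.10 (SE 0.07) in HET and Gins2 of 0.02 (SE 0.06). The 95% intervals lay within 1.25-fold for 30 of the 32 genes and within 1.5-fold for 31, Cdk2 being the exception.

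The comparison of KO with HET cells asks what loss of the remaining allele adds, and called 0 of the 32 genes, against 0.264% of all tested genes in limma. Gins2 had an unadjusted p = 0.0162 with a change of 0.16 (SE 0.06, limma adjusted p = 0.505), and it was the 1 gene of the 32 under 0.05, against 6.39% of all tested genes. The median change was 7.9e-05, with 16 positive and 16 negative changes. The comparisons share arrays, HET in 2 of them and WT in 2, so their values for a gene are not independent.

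Taken as a mean per array, the 32 genes did not separate the genotypes. The mean deviation from the genes' own averages was -0.068, 0.010, -0.019, 0.017 and 0.048 on KO arrays, -0.013, 0.023, -0.014, -0.017 and 0.007 on HET arrays, and -0.057, -0.005, 0.058 and 0.028 on WT arrays. The lowest and the highest arrays, KO 1 and WT 3, differed by little more than 0.1 log2 units, and KO and WT arrays covered nearly the same range. Group means were -0.0024 ± 0.044 in KO cells (SD, n = 5), -0.0028 ± 0.017 in HET cells (SD, n = 5) and 0.006 ± 0.049 in WT cells (SD, n = 4). The KO minus WT difference of -0.0084 was smaller than the SD within either group. A list of 15 mitosis genes had group means of 0.023 ± 0.090 in KO cells, -0.027 ± 0.056 in HET cells and 0.0055 ± 0.055 in WT cells (SD), with KO 1 lowest and KO 5 highest of the KO arrays on both lists.

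**Figure D4:**
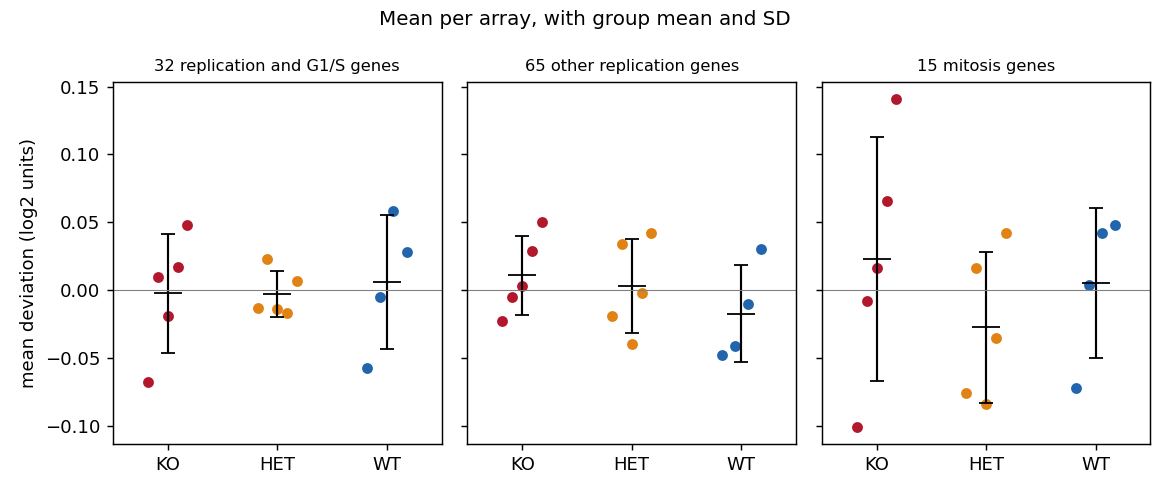
Mean deviation per array (points) in log2 units with group mean and SD (bars) for 32 DNA replication and G1/S genes, 65 other replication genes and 15 mitosis genes, in KO, HET and WT cells. The groups overlap in all 3 panels, and KO 1 is the lowest KO array in each.

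Of the 28 measured genes with a promoter window, the 12 genes with an E2F match had 1 positive KO change and a median of -0.05, and the 16 without one had 10 positive changes and a median of 0.02, with 0 genes called in both. Without KO 3 the counts were 3 of 12 and 5 of 16 positive, with medians of -0.056 and -0.016, so both medians were then negative. In HET against WT the numbers were 1 of 12 and 13 of 16 positive, with medians of -0.04 and 0.01, but this comparison uses the same WT arrays. In KO against HET 4 of 12 and 9 of 16 changes were positive, with medians of -0.0078 and 0.0027. Mcm5 and Dtl, which hold the cAMP response element, had KO changes of -0.12 and 0.0063.

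Across the 14 arrays, and after each group's mean was taken out, the 496 pairs of the 32 genes had a median Pearson correlation of 0.16, and 21.6% of pairs exceeded 0.5. For pairs among 1023 genes taken at even steps through the tested genes the median was 0.036 and 13.0% exceeded 0.5. All pairs share the same arrays and normalisation. The closest pair was Mcm6 and Rrm1 (r = 0.93, and 0.93 without KO 3), followed by Pola1 and Slbp (0.90, but 0.47 without KO 3) and Mcm7 and Lig1 (0.88, and 0.85 without it). Ccne2 and Cdk2, a cyclin and its kinase, had r = 0.83 and 0.89 without KO 3. Both genes were higher on the arrays numbered 4 and 5 than on all others, and the part of this split in their correlation was not tested. The most opposed pair was Prim1 and Slbp, at -0.87 and -0.55 without KO 3. Pairs above 0.5 numbered 107 with and 86 without KO 3, and pairs below -0.5 numbered 57 with and 27 without it.

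Of 66 other replication and G1/S genes, 65 were measured, among them the origin recognition complex, polymerases delta and epsilon, further RFC and RPA subunits and the remaining E2F, DP and pocket protein genes. In KO against WT 1 of the 65 was called, higher, and 0 were lower, beside 2.44% of all tested genes. The 65 changes had a median of 0.012, with 35 positive and 30 negative. In HET against WT and in KO against HET 0 of the 65 were called.

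The called gene was Tfdp2, which encodes DP2, a dimerisation partner of the E2F factors. It read 10.04, 9.73, 9.77, 9.88 and 9.96 in KO cells, 9.48, 9.48, 9.57, 9.65 and 9.60 in HET cells, and 9.31, 9.14, 9.13 and 9.34 in WT cells. Every KO array lay above every HET array and every HET array above every WT array. Against WT, Tfdp2 rose in KO cells by 0.62 (SE 0.08, 1.54-fold, limma adjusted p = 0.000934) and was called in all 14 fits that left out 1 array. In HET cells the change was 0.32 (SE 0.08, unadjusted p = 0.001, adjusted p = 0.806), and 1.03% of all tested genes had every HET array above every WT array. Against HET, the KO change was 0.30 (SE 0.07, limma adjusted p = 0.136), where 0.606% of all tested genes had every KO array higher and 1.43% did not overlap in either direction. On 2 dimmer probe sets of Tfdp2 above the level for testing the KO changes were 1.00 (SE 0.16, adjusted p = 0.00886 over 22518 probe sets) and 0.82 (SE 0.10, adjusted p = 0.00161).

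The partners and regulators of DP2 were not called with it. The KO changes were -0.012 (SE 0.11, limma adjusted p = 0.986) for Tfdp1, the other DP gene on the list, and 0.05, -0.04, -0.04, 0.12 and -0.04 for E2f3, E2f4, E2f5, E2f6 and E2f8. E2f7, an atypical E2F that represses without a DP partner, read 10.50, 10.52, 10.54, 10.52 and 10.65 in KO cells and 10.41, 10.42, 10.29 and 10.38 in WT cells, a change of 0.17 (SE 0.07, limma adjusted p = 0.267). Pocket protein genes, whose products bind and restrain E2F, had fitted changes of 0.14 for Rb1, -0.04 for Rbl1 and 0.02 for Rbl2, with limma adjusted p of 0.842, 0.949 and 0.982. Among the rest, Pold4, the small subunit of polymerase delta, had a fitted change of -0.16 (SE 0.05, limma adjusted p = 0.129), Rfc2, a clamp loader subunit, of -0.21 (SE 0.07, adjusted p = 0.157) and Prim2, the large primase subunit, of 0.17 (SE 0.06, adjusted p = 0.173). For these 3 genes, which did not pass, KO and WT arrays did not overlap, as for 6.51% of all tested genes. Of the 65, 4 (Tfdp2, E2f7, Hells and Prim2) had every KO array higher, as had 2.87% of all tested genes. Every KO array was lower for 2 (Pold4 and Rfc2), and for 3.65% of all tested genes. Hells had a fitted change of 0.18 (SE 0.07, limma adjusted p = 0.269) and Dctpp1, with overlap, of 0.23 (SE 0.08, adjusted p = 0.236). At an unadjusted p under 0.05, 5 of the 65 were higher and 2 lower (10.8%, against 13.1% of all tested genes).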

How the data were processed

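Per the labels' protocols, 25 ng of total RNA per mouse was amplified, labelled with biotin and hybridised to an Affymetrix mouse array. The authors deposited normalised log2 intensities of 45101 probe sets. RMA is named in the submitters' processing notes, and its version is not given in the sources used here. RMA equalises the arrays' distributions, so a change shared by most genes would not be seen.

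Platform annotation named 1 gene for 34945 probe sets, 18193 genes in all. Each gene was represented by its brightest single-gene probe set and tested if its mean was above 6.43, the median over all probe sets other than controls. Limma 3.58.1 in R 4.3.3 fitted group and sex over all 14 arrays, with Benjamini-Hochberg adjustment over 10225 genes and a threshold of 0.05. Intervals are 95% from the moderated fit. A second fit covered 22518 single probe sets above that level. The fit was tested on simulated data. Alternatives varied the filter, normalisation, probe set rule, covariates, arrays, weights and variance prior.

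The members and lists were chosen with earlier results of these data known, so lists are described by counts and medians, without list tests. Genes with values on every array were those called, the 3 smallest p in each direction per comparison and the brightest of each role; Cdk2, E2f7, Gins3, Gins4 and other uncalled genes of the second list were named after their values were seen. The main fit has no block, because the labels do not say that replicate numbers pair the arrays. Even so, 9 of 13 same-numbered pairs correlated above 0.1, and a fit with the number as a block is among the alternatives. Identical values between any 2 arrays numbered at most 58. The number of arrays limits the precision.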

Additional observations from a re-analysis of the deposited data

Results flagged for a closer look

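Of 102 groups of 4 or 5 arrays looked at, for the 32 genes, Tfdp2 and the mean per array, 4 had an array far from the others by Dixon's criterion, which chance reaches in about 1 group in 20. Pola1 was 10.85 on KO 3, with the next KO array at 11.26. Lig1 was 12.12 on KO 3, with the next at 11.97. E2f2 was 11.17 on WT 3, with the next WT array at 11.04. Mcm10 was 10.62 on HET 2, with the next HET array at 10.66, in a group that spans less than 0.1 log2 units.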

How the results depend on the processing

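Under all 27 alternatives, 1 of them added after the data were seen, 0 of the members tested were called in each of the 3 comparisons, and the median change moved by less than the SD of the mean per array within groups (0.039). The KO change of Tfdp2 stayed called throughout (0.59 to 0.81, limma adjusted p from 0.000426 to 0.0338). Calls over all genes moved more. For KO against WT, 249 became 117 above the 75th percentile of intensity, 79 with females alone, 98 with only those groups fitted, 75 without KO 3 and WT 4, and 130 to 259 with 1 array left out (144, 161, 146 and 130 without WT 1, WT 2, WT 3 or WT 4). For HET against WT, 0 became 6 with array weights, and 0 with any 1 array left out. For KO against HET, 27 became 2 with no filter, 4 above the 75th percentile, 0 with females alone, 5 with only those groups, 72 with array weights, 13 without KO 3 and WT 4, 50 with numbers 1 to 3 against 4 and 5 as a term, and 0 to 25 with 1 array left out (0 without HET 1 or HET 5). The cause was not tested. Without KO 3, 10 of the 32 genes turned sign in KO against WT. Cdk2, at -0.22, was 0.15 with array weights, 0.17 without KO 3 and 0.40 without KO 3 and WT 4. Ccne2, at 0.24, ran from 0.053 without KO 4 to 0.61 without KO 3 and WT 4. Among the genes chosen by p or brightness, uncalled changes also turned sign for Mcm5 in KO against WT with females alone (0.013) and for Uhrf1 in KO against HET with array weights (0.035), without KO 3 and WT 4 (0.015) and without KO 3 (0.019, range -0.11 to 0.019 with 1 array left out). With the replicate number as a block, 198, 1 and 16 genes were called in KO against WT, HET against WT and KO against HET, and 0 of the 32 genes. The labels do not say what the numbers mean: same-numbered arrays correlated above 0.1 in 9 of 13 pairs, and 8 of 14 arrays correlated best with their own number in another group. Signal over background was not measured here.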

Other observations

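Ccne2 lay between 10.13 and 10.43 on the 5 arrays numbered 4 or 5, against 9.49 to 10.03 on the 9 arrays numbered 1 to 3, and Cdk2 between 10.63 and 10.98, against 9.15 to 10.50. They were the 2 of 32 genes (6.25%) whose ranges did not overlap in this split, against 4.48% of all tested genes, 349 higher and 109 lower on arrays 4 and 5. The split was chosen after these values were seen, and the labels do not say what the numbers stand for. With it as a term in limma the KO change of Ccne2 was 0.21 (SE 0.09) and that of Cdk2 was -0.26 (SE 0.23), and 0 of the 32 genes were called.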
